A study of Mus musculus with 5 samples.

Results

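The regions described here are 2000-bp windows of mouse chromosome 7 that lie more than 10 Mb from the Cebpa promoter on its telomeric side. They were listed with 4C-seq reads from this promoter, which does not by itself establish a contact. 4C-seq reads out which stretches of DNA had been ligated to a chosen site, the viewpoint, after cross-linking and digestion. Windows were chosen by position alone, from a start of 45118001 (mm10) to the chromosome end at 145441459. A total of 6941 windows of this stretch were listed in at least 1 library, out of 12222 on chromosome 7 and 29870 in the genome. The stretch itself holds 50162 windows. Of these, 13.8% were listed at least once.

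The study asked how the contacts of Cebpa change as fat cells form. 3T3-L1 is a fibroblast-like line from mouse embryo that becomes adipocytes under hormones. Preadipocytes (3T3-L1-PRE) were compared with adipocytes (3T3-L1-AD) collected at day 7 after induction with IBMX, dexamethasone and insulin, with 2 libraries of each. The labels do not say whether the replicates were separate cultures, so p-values measure the spread between these libraries only, which may be technical. Where a state is given 2 values, the first is replicate 1. Where 4 values stand in a row, those of 3T3-L1-PRE come first. Read totals over all listed windows were 9453610 and 16888137 for 3T3-L1-PRE, and for 3T3-L1-AD 6535263 and 10173531.

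Cebpa encodes a transcription factor that, together with PPARG, switches on the adipocyte gene programme. Contacts of a promoter are densest around it and thin out with distance along the chromosome. Beyond several megabases they mostly reflect which parts of a chromosome territory lie near each other, and active, gene-rich chromatin tends to lie apart from silent chromatin.

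In 3T3-L1-PRE, each 1-Mb bin of the far side held a listed window, while 8 and 1 bins held none in 3T3-L1-AD, or 9 and 12 when windows needed at least 13 reads. Far windows numbered 1635 and 5112 in the 3T3-L1-PRE libraries, and 344 and 790 in the 3T3-L1-AD libraries. Both 3T3-L1-PRE libraries thus lay above both 3T3-L1-AD libraries, but the replicates of a state also differed by over 2 times. The fewest reads of any listed window were 13 and 11 for 3T3-L1-PRE, and for either 3T3-L1-AD library 2. Windows not listed were taken as 0 reads. Their true count may be as high as 12 and 10 reads in 3T3-L1-PRE, while 3T3-L1-AD allows 1 read. With a common minimum of 13 reads, 1635, 5027, 310 and 290 windows were left, in this order, so that the 3T3-L1-AD replicates became alike and stayed below both 3T3-L1-PRE replicates. No far window stood out from the background that the authors computed for its distance. The deposited q-value was 1 at every far window of the 4 libraries.

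The libraries differed in how their reads were spread. The median far window of 3T3-L1-PRE held 355 and 262 reads, and that of 3T3-L1-AD 617 and 4. Replicate 2 of 3T3-L1-AD thus stood apart: 500 of its far windows (63.3%) had 12 reads or fewer, and together these held 0.257% of its far reads. The 10 most read windows took 4.27% and 1.39% of the far reads in 3T3-L1-PRE, against 19.1% and 24.9% in 3T3-L1-AD. A shorter list gives its top 10 a larger share by its length alone, so these shares do not compare the states.

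The windows of few reads in 3T3-L1-AD replicate 2 coincided with windows of many reads in 3T3-L1-PRE replicate 2. Of its 429 far windows with 2 to 4 reads, 393 (91.6%) recurred in 3T3-L1-PRE replicate 2, at a median of 1008 reads there. Replicate 1 of 3T3-L1-PRE listed 36 (8.39%) of them, and replicate 1 of 3T3-L1-AD listed 6 (1.40%). The share of its windows that 3T3-L1-PRE replicate 2 also listed was 26.8% at 5 to 12 reads, 19.3% at 13 to 99 reads and 23.0% at 1000 reads or more. Seen from the other side, 37.1% of the 536 far windows with at least 1000 reads in 3T3-L1-PRE replicate 2 were listed with 4 reads or fewer in 3T3-L1-AD replicate 2, against 0.122% of its 1639 windows with fewer than 100 reads. These classes of reads were chosen after the values were seen, and how such reads arose was not tested. Several values below that count listed windows are therefore also given with the common minimum, which leaves these windows out. The counts per gene include them.

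The share of chromosome 7 reads that fell on the far side separated the states. It was 15.1% and 15.3% in 3T3-L1-PRE, against 10.2% and 8.23% in 3T3-L1-AD. Its 95% Wilson intervals were 15.07% to 15.12%, 15.24% to 15.28%, 10.22% to 10.28% and 8.21% to 8.25%, and reflect no more than counting error. PCR reads that carry no molecular identifiers are not independent, and this holds for the floors below too. The mean was 15.2% ± 0.115 (SD, n = 2) in 3T3-L1-PRE and 9.24% ± 1.43 (SD, n = 2) in 3T3-L1-AD, and the states did not overlap. The two-sided exact permutation test over libraries gave p = 0.333, which is the smallest that 2 against 2 libraries allow. Whether the states overlapped depended on the whole that was taken. As a share of chromosome 7 reads more than 1 Mb from the viewpoint, the far side held 55.7% and 56.7% in 3T3-L1-PRE, against 58.3% and 51.8% in 3T3-L1-AD, so that the states overlapped (exact permutation p = 1).

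Per Mb, the far side held more listed windows than the other chromosomes did in each of the 4 libraries. There were 16.3 and 51.1 far windows per Mb in 3T3-L1-PRE, against 1.15 and 3.84 per Mb over the other chromosomes. In 3T3-L1-AD there were 3.44 and 7.90 far windows per Mb, against 0.693 and 1.82. The ratio was 14.2 and 13.3 in 3T3-L1-PRE, against 4.96 and 4.33 in 3T3-L1-AD. Over the 4 libraries the mean log2 ratio was 3.00, and the two-sided exact sign-flip permutation test gave p = 0.125, the smallest that 4 libraries allow. Between the states the log2 ratio differed by -1.57, with means of 2.21 ± 0.14 (SD, n = 2) in 3T3-L1-AD and 3.78 ± 0.07 (SD, n = 2) in 3T3-L1-PRE. These did not overlap (two-sided exact permutation p = 0.333). With the common minimum the ratio was 14.2, 13.4, 6.25 and 3.15. None of the 20 other chromosomes reached the far density in any library. Chromosome 19 was the densest of them in both 3T3-L1-PRE libraries and in 3T3-L1-AD replicate 2, with 2.42, 7.92 and 2.94 windows per Mb, and chromosome 6 in 3T3-L1-AD replicate 1, with 1.08.

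Along the far side, density did not follow distance evenly. At 10 to 20 Mb from the viewpoint there were 28.8 and 78.4 windows per Mb in 3T3-L1-PRE, against 5.80 and 14.1 in 3T3-L1-AD. At 100 to 110 Mb there were 9.20 and 29.9 in 3T3-L1-PRE, against 2.30 and 6.50 in 3T3-L1-AD. The nearer stretch was 3.13 and 2.62 times as dense as the farther in 3T3-L1-PRE and 2.52 and 2.17 times in 3T3-L1-AD. By reads per Mb the ratios were 3.75 and 3.13 in 3T3-L1-PRE, against 5.09 and 2.12 in 3T3-L1-AD. Against the stretch at 90 to 100 Mb, the ratios by windows were 2.09, 1.67, 1.71 and 1.83. By either of these, the states overlapped. At 40 to 50 Mb there were 25.2, 73.2, 3.90 and 9.30 windows per Mb, and the next 10 Mb were a local low. From 50 to 60 Mb to the next 10 Mb, density went from 11.5 to 15.2 windows per Mb in 3T3-L1-PRE replicate 1 and from 33.2 to 52.2 in 3T3-L1-PRE replicate 2. Over the same step it went from 2.60 to 2.80 in 3T3-L1-AD replicate 1 and from 4.50 to 8.60 in 3T3-L1-AD replicate 2. At 80 to 90 Mb there were 9.80, 30.5, 2.2 and 3.90 windows per Mb. These lows were not all seen in 3T3-L1-AD with the common minimum. Replicate 1 then had 2.50 windows per Mb at 50 to 60 Mb and 2.2 at 60 to 70 Mb, and replicate 2 had 1.30 at both 70 to 80 Mb and 80 to 90 Mb. Compared with the stretch at 1 to 10 Mb on the same side, which had 44.2, 127, 8.25 and 21.4 windows per Mb, the far side was 0.370, 0.401, 0.417 and 0.370 times as dense. Compared with the centromeric side beyond 10 Mb, it was 0.871, 0.961, 0.740 and 0.830 times as dense.

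The bins named next had the highest mean share of far windows over the 4 libraries. The bin from 46000001 to 47000000 came first, at 4.15%, with 58 and 212 windows in 3T3-L1-PRE, against 15 and 36 in 3T3-L1-AD. It holds Abcc8 and Kcnj11, which encode the parts of a potassium channel closed by ATP, Myod1, the muscle regulator, the serum amyloid A genes Saa1 to Saa4, and Ldha, which encodes lactate dehydrogenase A. Next came the bin from 49000001, with most of Nav2 and part of Nell1. It had 62, 139, 8 and 20 windows in this order. The bin from 79000001 had 52, 133, 8 and 24 windows. It holds Plin1, which encodes the perilipin that coats lipid droplets of adipocytes, Abhd2, Polg and Mesp1. The bin from 45118001, shortened by the limit, had 49, 114, 11 and 19 windows. It holds Fgf21, which encodes a hormone of fasting metabolism, and Gys1, which encodes muscle glycogen synthase. The bin from 109000001, with Tub, Lmo1 and St5, had 36, 94, 11 and 14 windows. The 3T3-L1-AD counts of these 5 bins with the common minimum were 15 and 9, 7 and 10, 8 and 12, 10 and 10, and 10 and 3, in the order named.

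The megabases with the fewest windows lay in olfactory receptor clusters and in stretches with few genes. The bin from 106000001 held 1, 10, 1 and 1 windows, and 19 of its 20 protein-coding gene starts are of olfactory receptors. The bin from 86000001 held 6, 14, 0 and 2 windows and starts of 20 olfactory or vomeronasal receptor genes. The bin from 103000001, with 52 olfactory receptor genes on either side of the beta-globin cluster, held 2, 20, 1 and 2 windows. The bins from 76000001 and 77000001 formed a run of few windows, with 2, 21, 1 and 2 in the former and 6, 14, 0 and 2 in the latter. Agbl1 is the only protein-coding gene that reaches into them. The bin from 136000001, with part of Mgmt, held 4, 13, 0 and 4 windows. Repeats made up 54.5%, 48.4% and 45.3% of the bins from 106000001, 86000001 and 103000001. They made up 35.3%, 34.0% and 19.2% of those from 76000001, 77000001 and 136000001. The authors dropped ends without a unique position, and whether repeats lowered these counts was not tested. The last bin is short and reaches only to the chromosome end.

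The 10 full bins with at least 5 olfactory or vomeronasal receptor genes, a grouping chosen after the values were seen, held fewer listed windows on average than the other 89 in each library. They held a mean of 7.70 and 28.7 windows in 3T3-L1-PRE, against 16.9 and 52.8 in the others. In 3T3-L1-AD they held 2.00 and 4.50, against 3.52 and 8.13. With the common minimum the 3T3-L1-AD values were 1.80 and 1.30, against 3.17 and 2.98. Not every receptor-rich bin was low. The bin from 102000001, with 33 such genes, held 20, 66, 2 and 10 listed windows, above the mean of the others in both 3T3-L1-PRE libraries. Mean reads per bin were 5299, 11724, 4759 and 3109.9 in the receptor-rich bins and 12084, 21659, 4875 and 6134 in the others, and thus close in 3T3-L1-AD replicate 1. By number of other protein-coding genes, a grouping also chosen after the values were seen, the top 25 full bins held a mean of 19.6 and 63.1 windows in 3T3-L1-PRE, and the bottom 24 held 9.42 and 28.7. In 3T3-L1-AD the means were 4.20 and 10.0 at the top, and 2.54 and 4.38 at the bottom. With the common minimum the 3T3-L1-AD means were 3.72 and 3.48 at the top, and 2.33 and 2.04 at the bottom.

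Across the 99 full bins, windows per bin correlated with GC content at Spearman's rho of 0.255 and 0.359 in 3T3-L1-PRE, against 0.147 and 0.406 in 3T3-L1-AD. With the number of protein-coding genes other than receptors, rho was 0.311, 0.434, 0.223 and 0.391. With the number of DpnII sites, the enzyme used to cut the chromatin, it was -0.106, -0.181, -0.129 and -0.228. With the share of bases in repeats it was -0.118, -0.160, -0.0531 and -0.260. For 3T3-L1-AD, the values with the common minimum were 0.107 and 0.290 for GC content, 0.163 and 0.267 for genes, and -0.207 and -0.0975 for DpnII sites. For repeats they were -0.0673 and -0.187. Bins of a library share its depth, and neighbouring bins are not independent. Between the 3T3-L1-PRE libraries, rho of windows per bin was 0.826 over the 99 bins. Between the 3T3-L1-AD libraries it was 0.391, and 0.326 with the common minimum. Between the states it ran from 0.540, for replicates 1, to 0.778, for replicates 2, and from 0.461 to 0.531 with the common minimum. By rho of windows per bin, the replicates of 3T3-L1-AD were thus less alike than any pair of libraries of different states. For reads per bin rho was 0.717 between the 3T3-L1-PRE libraries and 0.145 between the 3T3-L1-AD libraries.

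Reads per 1-Mb bin were compared between the states with edgeR's quasi-likelihood test over the whole genome. Of the 101 far bins, 0 were called at an edgeR FDR of at most 0.01, beside 0.0875% of the 2286 bins tested. The common dispersion of the bins was 4.17, so that a count of 0 does not show that they did not differ. One far bin had an unadjusted p of at most 0.05 in edgeR. DESeq2 also called 0 far bins, with 5 at such a p. The bin with the smallest p began at 75000001, over Sv2b, Akap13 and Klhl25, with 22620 and 34336 reads in 3T3-L1-PRE, against 0 and 96 in 3T3-L1-AD (edgeR unadjusted p = 0.0358). Both 3T3-L1-AD libraries were low there. When listed windows were counted in place of reads, 38 of the 101 far bins (37.6%) were called, all lower in 3T3-L1-AD, beside 2.41% of the 2286 bins tested by edgeR. That count moves with how many windows each library lists. The minimum was lower in 3T3-L1-AD, which lets more of its windows be listed, on the far side and elsewhere. Which way this moved the scaled counts per bin was not tested. The count was not repeated with the common minimum.

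Few far windows recurred. Of the 6941 windows, 6059 (87.3%) were listed in 1 library, 826 (11.9%) in 2, 54 (0.778%) in 3 and 2 (0.0288%) in all 4. The 3T3-L1-PRE replicates shared 302 windows, or 18.5% and 5.91% of their lists. The 3T3-L1-AD replicates shared 19, or 5.52% and 2.41%. With equal numbers of windows per library over the genome, the counts were 20 and 9. Libraries of different states shared 55 to 471 windows. Most were shared by replicate 2 of 3T3-L1-PRE with replicate 2 of 3T3-L1-AD, at 9.21% and 59.6% of the far windows of each. With the common minimum this pair shared 57 windows, 1.13% and 19.7% of each list, the 3T3-L1-PRE replicates 299 and the 3T3-L1-AD replicates 8. Replicate 2 of 3T3-L1-PRE then shared 61 with replicate 1 of 3T3-L1-AD, so that the ranking did not hold. At shared windows, the larger count of the replicates was a median of 4.22 times the smaller for 3T3-L1-PRE, and for 3T3-L1-AD 4.67 times. At the common minimum they were 4.12 and 2.02 times, so that the order of the states turned.

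The windows in all 4 libraries began at 95148001 and 138922001. The former is intergenic, 1021246 bp from Tenm4, and had 299 and 918 reads in 3T3-L1-PRE, against 1966 and 2 in 3T3-L1-AD. The latter is intergenic, 12482 bp from Bnip3, which encodes a mitochondrial protein of mitophagy, and had 348 and 767 reads in 3T3-L1-PRE, against 2221 and 2 in 3T3-L1-AD. At both, 3T3-L1-AD replicate 2 had 2 reads, and neither was left in 4 libraries with the common minimum. Their edgeR FDR was 0.688 and 0.647.

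Among the windows shared by the 3T3-L1-PRE replicates, those with the highest smaller count, scaled to chromosome 7 reads, were spread over the far side. The window from 46086001, 1789 bp from Nomo1, had 5140 and 2470 reads in 3T3-L1-PRE, against 0 and 3 in 3T3-L1-AD. The window from 65758001, in an intergenic stretch nearest to Tm2d3, had 3232 and 1832 reads, and was not listed in 3T3-L1-AD. The window from 58628001, nearest to Atp10a, had 3178 and 1379, and was also not listed in 3T3-L1-AD. Being high in 3T3-L1-PRE was fixed by the choice, and 251 of the 302 shared windows (83.1%) were listed in neither 3T3-L1-AD library. The others lay in introns of Nav2, of Homer2, a scaffold of synapses, and of Rhog, a small GTPase, over an exon of Eps8l2, over noncoding genes at 51772001 and 83830001, and near Mfge8 at 79166001. None of the 10 was called. Their edgeR FDR lay between 0.0273 and 0.0908.

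Of the 19 windows shared by the 3T3-L1-AD replicates, 12 were listed in neither 3T3-L1-PRE library. In 11 of the 19, a replicate had fewer than 13 reads. All 19 were chosen as listed in both 3T3-L1-AD libraries, so for those unlisted in 3T3-L1-PRE a low edgeR FDR restates this choice. The window from 63950001, 11086 bp from Klf13, which encodes a transcription factor active in adipogenesis, had 3699 and 1250 reads in 3T3-L1-AD, and was not listed in 3T3-L1-PRE (edgeR FDR 0.0217). Klf13 itself, with 10 kb on either side, had 5218 and 1903 reads in 3T3-L1-PRE and none listed in 3T3-L1-AD. The window from 134308001, in an intron of D7Ertd443e, had 3579 and 2930 reads, against 555 and 0 in 3T3-L1-PRE (edgeR FDR 0.244). The window from 103802001, 8524 bp from the beta-globin gene Hbb-bt, had 173 and 389 reads (edgeR FDR 0.0206). These were the 3 windows with at least 100 reads in both 3T3-L1-AD libraries. The window from 68004001, over an exon of Igf1r, which encodes the receptor of insulin-like growth factor, had 35 and 331 reads. Over all of Igf1r with 10 kb on either side, the reads were 8737 and 15545 in 3T3-L1-PRE, against 35 and 344 in 3T3-L1-AD. The window from 61696001 had 1869 and 60 reads. The window from 104410001, over an exon of Trim30a, had 55 and 48 reads, and 19 in 3T3-L1-PRE replicate 2. The window from 99144001, 2860 bp from Uvrag, which encodes an autophagy protein, had 8 and 845 reads. The others of the 10 with the highest smaller count were called and are given below.

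The windows with the most reads differed from library to library. In 3T3-L1-PRE replicate 1 it began at 77560001, 435303 bp from Agbl1, with 6763 reads. In 3T3-L1-PRE replicate 2 it lay in an intron of Abhd2 at 79306001, with 4082 reads. Both were listed in no other library. In 3T3-L1-AD replicate 1 it lay in an intron of Tenm4 at 96770001, with 12202 reads, against 811 in replicate 1 of 3T3-L1-PRE. That of 3T3-L1-AD replicate 2 lay over exons of Itgam, which encodes an integrin of myeloid cells, at 128064001, with 22511 reads, against 12 in 3T3-L1-PRE replicate 2. Neither of these was listed in the other 3T3-L1-AD library.

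Windows were tested between the states with edgeR's quasi-likelihood test, on the 1998 windows of the genome listed in both replicates of either state. Of the far windows, 319 entered the test. A window that entered through a single state had to differ, so the count that follows is no support for a difference. At an edgeR FDR of at most 0.01, 42 of the 319 (13.2%) were called, beside 13.7% of all windows tested. Of these, 6 (1.88%) were higher in 3T3-L1-AD, beside 7.21% of all tested, and 36 (11.3%) were lower, beside 6.51% of all tested. These counts moved with the setting. With RLE normalization, 6 were higher and 0 lower, beside 128 and 1 of all 1998 windows tested. With library totals alone they were 5 and 81, beside 160 and 281 of all. With DESeq2 they were 10 and 284, beside 248 and 1130 of all. A replicate block in edgeR gave 0 and 0, beside 8 and 0 of all. No far window then had an unadjusted p up to 0.05. The called windows were not those with the most reads. The 36 lower ones had medians of 66.5 and 66 reads in 3T3-L1-PRE, at most 221 in either, and none listed in 3T3-L1-AD. The 6 higher ones had medians of 6 and 10 reads in 3T3-L1-AD and were unlisted in 3T3-L1-PRE. With the common minimum of 13 reads, 0 of 307 far windows were called and 288 had an unadjusted p of at most 0.05 in edgeR. Called windows below this minimum, such as that at 73600001 with 5 and 7 reads, were then no longer tested. The median fitted log2 fold of far windows was -10.8 in the main test and -11.5 at this minimum, beside -8.24 and -10.2 over all windows tested. Most far windows entered through a single state, with unlisted windows taken as 0. Like the count, these folds are thus no measure of a difference. When every window listed by 2 or more libraries was tested, 0 of 882 were called and 43 had such a p.

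Among the lower windows, the smallest p-values belonged to windows near Snrnp70 at 45398001, near the olfactory receptor gene Olfr299 at 86470001, near Abhd17c at 84154001, over an exon of Dnajb13 at 100506001 and in an intron of Tph1 at 46654001. The window near Snrnp70 had 21 and 30 reads in 3T3-L1-PRE and was at least 3.65-fold lower in 3T3-L1-AD, against a floor of 3 reads per library. The window near Olfr299 had 26 and 41 reads in 3T3-L1-PRE, that near Abhd17c 21 and 51, that over Dnajb13 31 and 13, and that in Tph1 52 and 15. Against the same floor their counts in 3T3-L1-AD were at least 4.76-fold, 4.97-fold, 3.41-fold and 5.29-fold lower. The edgeR FDR of all 5 was between 0.00482 and 0.00483. Among the higher windows, that in an intron of Ptpre at 135572001 had 25 and 14 reads in 3T3-L1-AD, that in an intron of Nipa1 at 55982001 had 15 and 13, that near Chd2 at 73600001 had 5 and 7, and that at 52240001 had 7 and 100. With 3T3-L1-PRE set to its highest possible unlisted counts, 12 and 10 reads, they were at least 3.91-fold, 2.84-fold, 1.24-fold and 11.5-fold higher (edgeR FDR 0.00123, 0.00107, 0.00107 and 0.00540). These bounds depend on the scale. With library totals alone, a scale added after the values were seen, they were 2.79-fold, 1.92-fold and 5.86-fold for the windows at 135572001, 55982001 and 52240001, and that near Chd2 allowed no bound. On that scale the bounds of the 5 lower windows were larger, from 5.30-fold to 8.47-fold. All of these windows, lower and higher, entered the test through the state where they are high, so that neither their FDR nor their bound is evidence of a difference. The test took the unlisted windows as 0 reads and does not bear on these bounds. The windows in introns of Lins1 and Prr14 shared the same p, with 3 and 2 reads each, and allow no bound.

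Gene bodies of protein-coding genes overlapped 57.7% and 57.5% of the 3T3-L1-PRE far windows, 57.3% and 57.7% of those of 3T3-L1-AD, and 49.0% of all 50029 windows with sequence. Exons overlapped 23.3%, 24.0%, 25.3% and 23.2%, against 18.2% of all. Gene starts lay in 1.96%, 2.74%, 2.62% and 2.41%, against 2.17% of all, and so on either side of it. The median GC content was 44.2%, 44.0%, 43.5% and 44.4%, against 42.8% of all, and the median number of DpnII sites was 5 in each library and in all windows.

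The adipocyte and lipid genes were looked up with 10 kb on either side. Of these 13 genes, 9 and 12 had a listed window in 3T3-L1-PRE, against 3 and 5 in 3T3-L1-AD. Of the 1144 protein-coding genes looked up on the far side, 534 (46.7%) and 902 (78.8%) had one in 3T3-L1-PRE. In 3T3-L1-AD, 211 (18.4%) and 387 (33.8%) did. Windows per 100 kb were 3.07, 8.84, 0.472 and 1.65 over the list, and 1.94, 6.17, 0.395 and 1.00 over all genes. Plin1 had 1818 and 1821 reads in 3T3-L1-PRE, against 0 and 369 in 3T3-L1-AD. Around Dgat2, which encodes an enzyme of triglyceride synthesis, the counts were 0 and 627 in 3T3-L1-PRE, against 1364 and 879 in 3T3-L1-AD. Of these 879 reads, 845 lay in the window from 99144001, which is nearer to Uvrag. Around Pde3b, which encodes a phosphodiesterase of insulin signalling, there were 1453 and 1453 reads in 3T3-L1-PRE, against 0 and 7599 in 3T3-L1-AD. Around Pnpla2, which encodes adipose triglyceride lipase, there were 0, 1459, 450 and 0 reads, and around Idh2, an isocitrate dehydrogenase gene, 2016, 5110, 0 and 4. Fgf21 (1912 and 4093 reads), Ucp3 (93 and 399) and Sh2b1 (0 and 2191) had reads in 3T3-L1-PRE alone. Klf13 and Igf1r are given above, and Igf2 below. Ucp2, an uncoupling protein gene, had 124 and 404 reads in 3T3-L1-PRE with none listed in 3T3-L1-AD. Ucp2 and Ucp3 lie side by side and share 3 of these windows, and the count of Ucp2 includes the window over Dnajb13 at 100506001. Nr2f2, the gene of a nuclear receptor, had no listed window in any library.

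Imprinted genes lie in a pair of clusters on the far side. In the cluster of Snrpn and Ube3a, 4 and 5 of 5 genes had a window in 3T3-L1-PRE, against 1 and 0 in 3T3-L1-AD. The gene with one in 3T3-L1-AD was Mkrn3, with 300 reads in replicate 1. Of all 1144 protein-coding genes looked up, 46.7% and 78.8% had a window in 3T3-L1-PRE, against 18.4% and 33.8% in 3T3-L1-AD. In the distal cluster of H19, Igf2 and Kcnq1, 3 and 5 of 6 genes had a window in 3T3-L1-PRE, against 1 and 2 in 3T3-L1-AD. Kcnq1ot1, a member of the latter cluster, lies within Kcnq1, and all its windows count for both. Igf2, also among the adipocyte genes, had 103 and 360 reads in 3T3-L1-PRE and none listed in 3T3-L1-AD. Of 236 olfactory receptor genes, 25 (10.6%) and 102 (43.2%) had a window in 3T3-L1-PRE, against 7 (2.97%) and 20 (8.47%) in 3T3-L1-AD. Of 15 vomeronasal receptor genes, 5 and 8 had a window in 3T3-L1-PRE, against 1 and 3 in 3T3-L1-AD. Of the 5 beta-globin genes, Hbb-bt alone had a window, the one of both 3T3-L1-AD libraries named above. Windows per 100 kb were 1.14, 4.84, 0.569 and 0 over the cluster of Snrpn and 0.718, 2.51, 0.180 and 0.359 over the distal cluster. They were 0.461, 2.33, 0.127 and 0.349 over olfactory and 0.803, 1.34, 0.134 and 0.401 over vomeronasal receptor genes. Over all protein-coding genes they were 1.94, 6.17, 0.395 and 1.00. These lists differ in gene length and in distance from the viewpoint, and no difference between them was tested.

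Neighbouring windows often held the same number of reads. In 3T3-L1-PRE this held for 90 of 219 and 247 of 1077 pairs of adjacent far windows, and in 3T3-L1-AD for 18 of 27 and 45 of 73. A DpnII site lay within 130 bases of the shared boundary, which is the sequenced length of 150 beyond the primer of 20 that ends in the site, in 98.9%, 96.4%, 100% and 88.9% of these pairs. It lay so near at 48.0% of all 50161 boundaries of the region. Among adjacent pairs with different counts it did so in 57.4%, 58.2%, 100% (9 of 9) and 71.4% (20 of 28), so that 3T3-L1-AD replicate 1 showed no contrast. The distance was chosen after the counts were seen. With the site itself, which the authors left on the reads, the distance is 134 bases, and the shares of pairs with the same count were 100%, 96.4%, 100% and 88.9%, beside 49.1% of all boundaries. As examples, and not for every library, the pair with the most reads is shown for 3T3-L1-PRE replicate 2 and both 3T3-L1-AD libraries, to place its site against the boundary, on the plus strand of mm10, with the DpnII site nearest to the boundary in capitals. Each lies in an intron, of Arnt2, Grm5 and St5 in turn, and that in Arnt2 also over an exon of an antisense gene.
3T3-L1-PRE replicate 2, 1537 reads in both windows, boundary at 84340001, chr7:84339981-84340036: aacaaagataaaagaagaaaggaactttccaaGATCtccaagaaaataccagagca
3T3-L1-AD replicate 1, 3879 reads in both windows, boundary at 87656001, chr7:87655884-87656021: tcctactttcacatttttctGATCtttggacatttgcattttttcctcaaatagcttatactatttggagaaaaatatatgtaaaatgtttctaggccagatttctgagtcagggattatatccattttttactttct
3T3-L1-AD replicate 2, 3654 reads in both windows, boundary at 109530001, chr7:109529981-109530047: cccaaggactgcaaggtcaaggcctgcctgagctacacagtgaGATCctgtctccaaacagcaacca
The reading primer at the viewpoint ends in the same motif, at chr7:35117558-35117577: atctggcccagagagcGATC
With 1 window kept of each such run, the far share of chromosome 7 reads was 14.5%, 14.8%, 9.89% and 8.04%, in this order. Whether a read was counted in both windows that it overlaps was not tested, which would need the alignments. The reads per gene and per bin given above were not adjusted for such runs.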

How the data were processed

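The analysis covers 4C-seq from the Cebpa promoter, with 2 libraries for 3T3-L1-PRE and for 3T3-L1-AD. The titles of these libraries name mRNA-Seq. They were treated as 4C-seq, as the authors describe them. The inguinal fat sample has no file here and was left out. The authors used pipe4C to remove the primer, align reads to mm10 and drop ends without a unique position. In r3Cseq the authors took a raw count of reads per 2000-bp window. The deposited signal (RPMs) carries their r3Cseq normalization and does not scale with reads. The deposited p-value and q-value were computed by the authors within each library. Windows had to exceed RPMs of 1 to be listed, so far windows with few reads are missing more often in 3T3-L1-PRE.

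The members and lists were chosen with earlier results of these data known. The viewpoint was placed by matching the primer to mm10, and genes were taken from GENCODE. Windows and 1-Mb bins were tested genome-wide with the quasi-likelihood test of edgeR at an FDR of at most 0.01 after TMM, with p adjusted over the genome. Folds against unlisted windows are bounds. They used a floor of 3 reads per library, or the most an unlisted window can hold where that is larger, scaled to edgeR's TMM effective library sizes. Correlations are descriptions.

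Windows named were those in all 4 libraries, the 10 with the highest smaller count relative to chromosome 7 reads among those of both replicates of a state, the most read window of each library, and the 5 with the smallest edgeR p in each direction. Bins named were the 5 with the highest mean share of far windows and the runs with the fewest. Mkrn3, Hbb-bt, the bin with the smallest p and windows of equal neighbours fall outside this rule and were picked once their values were known.

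The alternatives were other minimums of reads, 1 window of each run of equal neighbours, other wholes, RPMs, a maximum of 1000 reads per window, thinned reads, equal numbers of windows, other normalizations, DESeq2, other tested windows, a replicate block, an FDR of at most 0.05, 5-Mb bins, chromosome 10 left out, windows over 60 Mb away and each library left out. Bounds scaled to library totals and a site distance of 134 bases were added after the values were seen. Versions: edgeR 4.0.16 and DESeq2 1.42.0 under R 4.3.3; scipy 1.17.1, pandas 2.3.3 and numpy 2.4.6 under Python 3.11.15.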

Additional observations from a re-analysis of the deposited data

How the results depend on the processing

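The lower far share of chromosome 7 reads in 3T3-L1-AD kept its direction in all 11 alternatives, though the states overlapped with chromosome 7 reads over 1 Mb away as the whole, with differences of the means between -16.4 and -1.13 percentage points, and with each library left out between -6.94 and -4.93. The higher density of far windows than of trans windows, and its lower ratio in 3T3-L1-AD, kept their direction in all 10 alternatives, with log2 values of 2.72 to 3.40 and -1.67 to -1.28. With 4 libraries these tests cannot pass 0.05, so this says nothing of stability.

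The windows listed in both replicates numbered 302 for 3T3-L1-PRE, and for 3T3-L1-AD 19. At 100 reads there were 184 and 3, and with equal numbers of windows 20 and 9. In 3T3-L1-AD there were 8 at 13 reads and 6 when reads were also thinned to the smallest library.

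The count of 42 far windows that differed between states depended on the setting. Of the 319 far windows, 272 were called at an FDR of at most 0.05, beside 1163 of all 1998 windows tested. With RLE it was 6 (0 of them lower in 3T3-L1-AD), beside 129 of all. Library totals alone gave 86, beside 441 of all, and DESeq2 294, beside 1378 of all. With filterByExpr it was 79 of 304, beside 333 of all 1864. The far count was 0 at 13 reads or with every window listed by 2 or more libraries, as was that of all windows. With each library left out, it lay between 0 and 42. Leaving out replicate 2 of 3T3-L1-PRE gave 0, and replicate 1 of it 42, all lower. Leaving out replicate 1 of 3T3-L1-AD gave 6, and replicate 2 of it 1. The lone library of a state was then assumed to vary like the other state. With a replicate block it was 0. By replicate number, the deviations of the libraries correlated at -0.0245 over the windows tested. Most of the far ones were unlisted in both libraries of a state, so this value cannot decide whether the libraries were paired. The replicate 2 libraries shared windows that had few reads in 3T3-L1-AD, as given above. The block left the far bins at 0. The 0 far bins became 38 when listed windows were counted, and remained 0 in the 12 other alternatives. With library totals as the scale, chosen after the values were seen, the bound of 1.24 at 73600001, near Chd2, became 0.781 and is no bound, since totals weigh the libraries otherwise than TMM. The other causes were not tested.

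At 13 reads, thinning to the smallest library took the shared windows from 299 to 254 in 3T3-L1-PRE and from 8 to 6 in 3T3-L1-AD. The common dispersion was 1.93 for windows and 4.17 for bins.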
